A study of Arabidopsis thaliana with 10 samples.

Results

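Nitrate transport and reduction were followed through 9 Arabidopsis thaliana genes, 5 for transporters (NRT1.1, NRT1.5, NRT1.7, NRT1.8 and NRT2.1), 3 for the reductases NIA1, NIA2 and NIR1, and 1 for the transcription factor NLP7. They were taken by gene identifier from a deposited table of 33559 genes, and were selected on their RPKM in the 5 genotypes, with earlier results of these data known, so their differences are given as a description. Seeds on MS medium, which supplies nitrate, were kept for 3 days at 4 °C and given 3 to 6 h of light before the seedlings grew in darkness for 3 days at 22 °C, and roots were left out at harvest. The groups were hls1, which lacks HOOKLESS1, needed for the apical hook; pifq, which lacks the bHLH factors PIF1, PIF3, PIF4 and PIF5, which hold seedlings in the dark-grown state; ein3 eil1, which lacks EIN3 and EIL1, a pair of transcription factors through which ethylene acts; pifq ein3 eil1, which combines both sets of mutations; and Col-0, the wild type and the background of every mutant. The labels name the genotypes and not the alleles. Each genotype had 2 biological replicates, but the deposited table gives a single RPKM for each gene in each genotype (reads scaled to gene length and library size), which appears to be a mean made by the authors. No replicate spread can be seen, so nothing was tested, and sequencing depth is unknown. In what follows, a called gene is one whose log2(RPKM + 1) was at least 1 higher or lower, counted among the 18581 genes with an RPKM of 1 or more in some genotype. Of the 9 genes, 7 were in that set. NRT1.8 and NRT2.1 were under it in every genotype.

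Plants take up nitrate with low-affinity carriers of the NRT1 (NPF) family and high-affinity carriers of the NRT2 family, move it through xylem and phloem, and store it in the vacuole. Nitrate reductase, encoded by NIA1 and NIA2, turns it into nitrite in the cytosol with a molybdenum cofactor, and nitrite reductase, encoded by NIR1, turns nitrite into ammonium in the plastid with a siroheme group. NLP7 switches on many nitrate-responsive genes and is known to be controlled mainly through its retention in the nucleus. In green tissue the reductase genes are known to respond to light as well as to nitrate, and the series asks what becomes of transcripts in darkness when the PIFs, EIN3 and EIL1, or HLS1 are missing.

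The 300 bases before the annotated start of 5 genes are shown, because NRT1.7 and NRT1.5 had the widest range over genotypes and because NIA1, NIA2 and NIR1 were highest in the same pair of genotypes. They were read from RefSeq's TAIR10.1 assembly by gene identifier, run 5′ to 3′ on the strand of the gene, and end at the base before its start. Capitals mark matches, on either strand, to 4 motifs: the G-box CACGTG and the PBE-box CACATG, known to be bound by PIFs; ATGTA, the core known to be bound by EIN3; and the nitrate-responsive element bound by NLPs, searched as GACNCTT, any 10 bases and AAG.
NRT1.7, chr1:26315487-26315786, plus strand: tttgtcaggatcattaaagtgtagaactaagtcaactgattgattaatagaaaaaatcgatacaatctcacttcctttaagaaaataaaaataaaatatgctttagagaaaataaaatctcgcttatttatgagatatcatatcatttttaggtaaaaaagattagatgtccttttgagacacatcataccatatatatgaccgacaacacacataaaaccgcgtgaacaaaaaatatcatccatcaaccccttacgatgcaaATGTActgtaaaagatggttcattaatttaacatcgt
NRT1.5, chr1:11719989-11720288, minus strand: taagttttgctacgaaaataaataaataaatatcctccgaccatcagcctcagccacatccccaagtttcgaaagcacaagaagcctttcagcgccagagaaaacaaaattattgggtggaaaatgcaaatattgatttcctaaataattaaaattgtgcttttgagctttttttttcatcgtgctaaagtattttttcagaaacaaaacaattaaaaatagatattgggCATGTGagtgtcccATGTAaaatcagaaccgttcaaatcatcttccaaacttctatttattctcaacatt
NIA1, chr1:29239485-29239784, minus strand: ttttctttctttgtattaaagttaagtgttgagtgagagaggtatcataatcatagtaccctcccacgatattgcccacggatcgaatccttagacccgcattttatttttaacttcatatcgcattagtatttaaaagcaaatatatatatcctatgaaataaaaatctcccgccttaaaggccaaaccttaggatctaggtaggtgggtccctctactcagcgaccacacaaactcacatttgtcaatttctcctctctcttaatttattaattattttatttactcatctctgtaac
NIA2, chr1:14158152-14158451, plus strand: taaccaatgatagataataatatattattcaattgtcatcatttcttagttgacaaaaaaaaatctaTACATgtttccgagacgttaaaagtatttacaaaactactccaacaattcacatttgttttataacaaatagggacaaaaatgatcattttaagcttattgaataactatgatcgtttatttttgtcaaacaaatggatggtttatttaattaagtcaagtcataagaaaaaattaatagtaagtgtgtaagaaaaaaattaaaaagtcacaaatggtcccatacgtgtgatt
NIR1, chr2:6810095-6810394, plus strand: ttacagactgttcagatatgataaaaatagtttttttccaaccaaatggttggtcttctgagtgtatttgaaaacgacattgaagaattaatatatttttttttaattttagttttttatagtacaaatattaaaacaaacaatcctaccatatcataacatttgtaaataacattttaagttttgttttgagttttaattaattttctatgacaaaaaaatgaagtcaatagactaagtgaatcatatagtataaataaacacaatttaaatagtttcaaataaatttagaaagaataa
Of the 27443 protein-coding genes with such a window, 7.09% held the G-box, 13.1% the PBE-box, 58.9% the EIN3 core and 0.164% the nitrate-responsive element. Among the 9 genes, none held the G-box or the nitrate-responsive element, 2 held the PBE-box (NRT1.1, as 2 overlapping matches, and NRT1.5) and 7 the EIN3 core. In the NRT1.5 window the PBE-box lies at -70 to -65 from the start and the EIN3 core at -56 to -52. The EIN3 core of NRT1.7 lies at -37 to -33, and that of NIA2 at -233 to -229. The NIA1 and NIR1 windows held none of the 4 motifs. A match is a run of letters and not a shown binding site, and a window without one says nothing of the factor.

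Of the mutated genes, EIN3 and EIL1 were low in ein3 eil1, at 17.9 and 10.8 RPKM against 84.0 and 44.4 RPKM in Col-0, and PIF3 was low in pifq, at 5.61 RPKM against 35.1 RPKM. PIF5 was also called lower in pifq. PIF3 was called lower in ein3 eil1 too, at 12.7 RPKM, so a low level was not particular to a gene's own mutant. In pifq, PIF1 stood at 18.2 RPKM and PIF4 at 8.69 RPKM, against 19.0 and 4.36 RPKM in Col-0. HLS1 in hls1 stood at 6.28 RPKM against 11.2 RPKM, so PIF1, PIF4 and HLS1 do not mark these mutants past the threshold. HLS1 was lower still, and called, in ein3 eil1 and pifq ein3 eil1, at 2.84 and 3.04 RPKM. PIF4 and PIF5 were called higher in hls1, at 9.81 and 16.0 RPKM, and PIF4 also in pifq ein3 eil1, at 11.6 RPKM. Over the 18581 genes, the median log2 difference from Col-0 came to 0.04 for hls1, -0.05 for pifq, -0.29 for ein3 eil1 and -0.17 for pifq ein3 eil1. For the dark-grown shoot, PORA and PORB together stood at 190 RPKM in hls1, at 1232 RPKM in pifq, at 2502 RPKM in ein3 eil1 and at 673 RPKM in pifq ein3 eil1, against 3570 RPKM in Col-0. Root transcripts were present although roots were not collected: 14 root markers summed to 280.1 RPKM in hls1, to 62.9 RPKM in pifq, to 287 RPKM in ein3 eil1 and to 87.5 RPKM in pifq ein3 eil1, against 249.6 RPKM in Col-0. CASP1 to CASP5, which build the Casparian strip of the root endodermis, made up most of this, while of the root hair genes COBL9, EXPA18, RSL4 and RHD6 stayed under 1 RPKM in every genotype, EXPA7 reached 1.22 RPKM in pifq ein3 eil1, and PRP3 was above 1 RPKM in every genotype, at 7.28 RPKM in ein3 eil1 against 1.58 RPKM in Col-0. RSL4 was listed at 0 in pifq and ein3 eil1. Fewer cells of a type and less RNA per cell cannot be told apart in such samples of mixed tissue.

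NRT1.7 (AT1G69870), a low-affinity carrier that loads nitrate into the phloem for movement out of source leaves, was higher than Col-0 in all 4 mutants. It stood at 21.8 RPKM in hls1, at 10.7 RPKM in pifq, at 11.8 RPKM in ein3 eil1 and at 21.8 RPKM in pifq ein3 eil1, against 3.16 RPKM in Col-0. Col-0 was thus the lowest genotype and hls1 and pifq ein3 eil1 were the highest and nearly level, with pifq and ein3 eil1 between them and near each other. On the log2 scale it differed from Col-0 by 2.46 in hls1, by 1.49 in pifq, by 1.62 in ein3 eil1 and by 2.46 in pifq ein3 eil1. As a linear ratio of RPKM, NRT1.7 was 6.92-fold higher in hls1 than in Col-0. Over all compared genes, 27 (0.145%) were called higher in all 4 mutants, and 32, NRT1.7 included, had a difference in hls1 at least as high as that of NRT1.7. These comparisons share the Col-0 value, so a low Col-0 value would raise all 4 together, and its replicate spread is not visible.

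Without the PIFs, loss of EIN3 and EIL1 went with a further difference in NRT1.7: it was at 21.8 RPKM in pifq ein3 eil1 and 10.7 RPKM in pifq, a log2 difference of 0.96, just under the threshold. That difference was 1.02 with a pseudocount of 0.1, 1.08 after median-of-ratios scaling, which sets the typical gene equal between genotypes, and 1.13 after scaling to the sum of nuclear genes, all past it. Against ein3 eil1, at 11.8 RPKM, the difference in pifq ein3 eil1 was 0.83. The interaction of both sets of mutations, which is how far the pifq difference without EIN3 and EIL1 departed from the pifq difference with them, was -0.66 and under the threshold. NRT1.7 spans chr1:26315787-26320233 on the plus strand of TAIR10.1, with 4 exons and no overlapping gene.

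**Figure D1:**
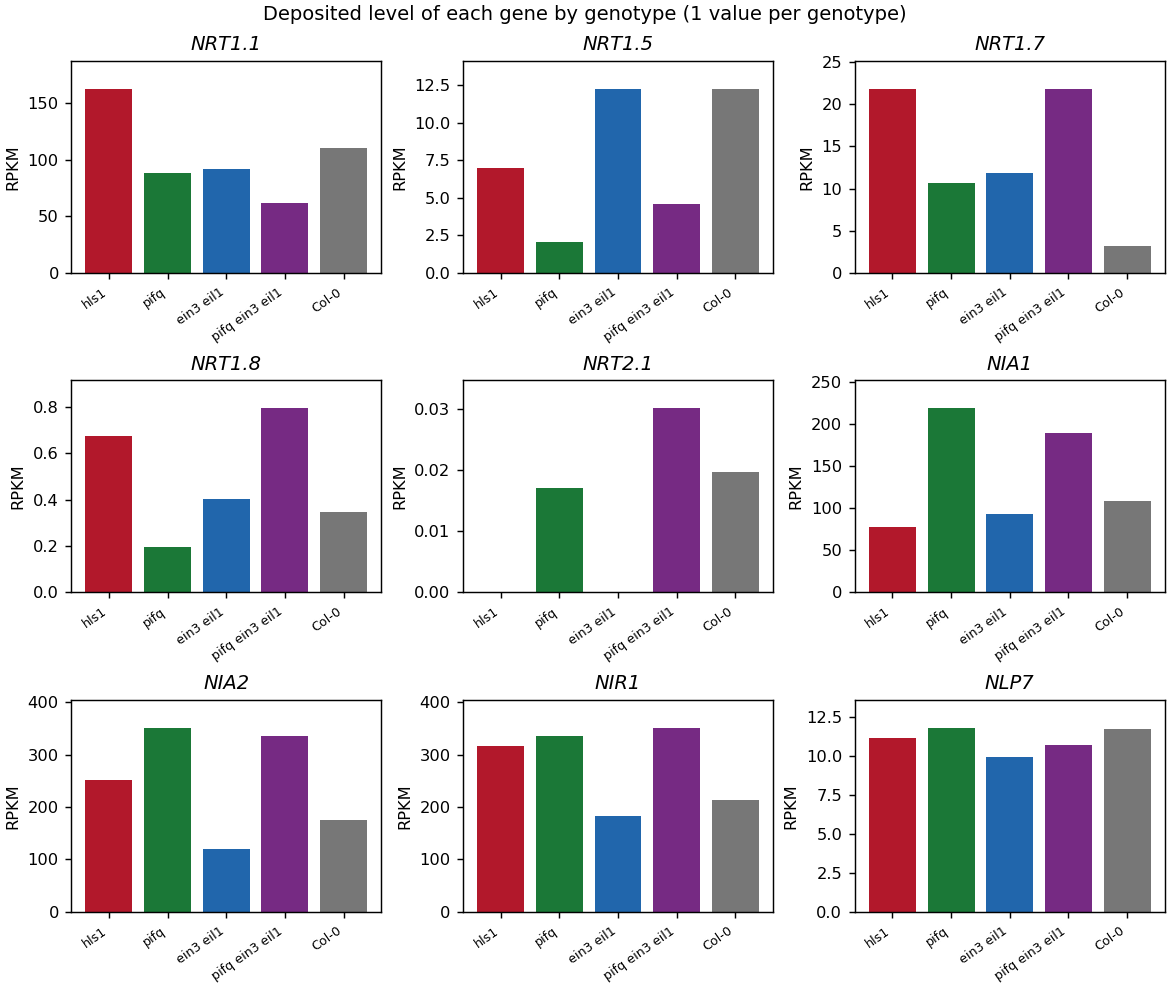
Level of each of the 9 genes in RPKM (vertical axes, from 0, a separate scale per panel) in the 5 genotypes, 1 deposited value per bar and so no error bar. NRT1.7 is lowest in Col-0 at 3.16 RPKM, and NRT1.5 is lowest in pifq at 2.07 RPKM. The NIA1, NIA2 and NIR1 bars are high in pifq and pifq ein3 eil1, and the NIR1 bar in hls1 is near them.

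NRT1.5 (AT1G32450), which loads nitrate into the xylem from the root pericycle, was lower in both genotypes without PIFs. It stood at 7.02 RPKM in hls1, at 2.07 RPKM in pifq, at 12.3 RPKM in ein3 eil1 and at 4.60 RPKM in pifq ein3 eil1, against 12.3 RPKM in Col-0. Thus ein3 eil1 and Col-0 were level, hls1 lay between, and pifq was lowest. It differed from Col-0 by a log2 value of -2.11 in pifq and -1.24 in pifq ein3 eil1, past the threshold, and -0.73 in hls1 and 0.00 in ein3 eil1, under it. In all, 223 genes, NRT1.5 included, differed at least as far downward in pifq. Against ein3 eil1, NRT1.5 in pifq ein3 eil1 differed by -1.25, and against pifq by 0.87. The interaction was 0.86, beside a median of 0.18 over all genes. With a pseudocount of 0.1 both the interaction and the difference from pifq passed the threshold. The interaction was 0.65 after median-of-ratios scaling, 0.61 after quantile normalization and 0.70 after scaling to nuclear genes.

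Several root transcripts were low in the genotypes where NRT1.5 was called lower, but not all of them. In hls1 the root markers went both ways. CASP1 stood at 15.4 RPKM in pifq and 18.1 RPKM in pifq ein3 eil1, against 83.8 RPKM in Col-0, and TIP2;3, a root tonoplast aquaporin gene, at 1.33 and 3.53 RPKM, against 27.3 RPKM. Of the 10 root markers among the compared genes, 8 were lower and none higher in pifq, where 9.61% of all compared genes were called either way, and 5 were lower and 2 higher in pifq ein3 eil1, where 9.85% were. The 2 higher ones were PRP3 and MRN1. In hls1, where 7.41% of all compared genes were called, PRP3 was higher and THAS1 lower. THAS1 was at 1.11 RPKM there against 8.62 RPKM in Col-0. MRN1 and TIP2;3 were also below Col-0 in hls1, by less than the threshold, and 7 of the 10 were above Col-0. Of all genes, 4.14% were called in ein3 eil1, where NRT1.5 was level with Col-0. PRP3, THAS1 and MRN1 were higher there and none lower. In hls1, where NRT1.5 was lower than Col-0 by less than the threshold, CASP1 was at 98.1 RPKM and the 5 CASP genes summed to 251 RPKM, against 209 RPKM in Col-0. The part of root tissue or of its endodermis in the NRT1.5 values was not tested. NRT1.5 lies on the minus strand at chr1:11715147-11719988, in 6 exons, and its last 16 bases overlap those of PKp3 (AT1G32440) on the other strand. PKp3 was at 11.3, 6.26, 5.10, 8.46 and 6.18 RPKM in hls1, pifq, ein3 eil1, pifq ein3 eil1 and Col-0 and passed the threshold in no comparison.

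**Figure D2:**
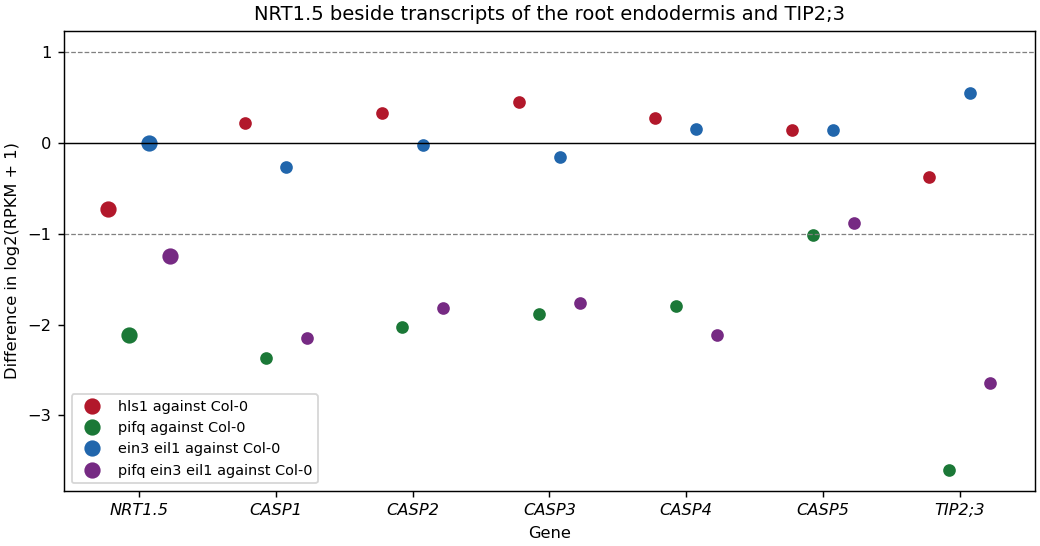
Difference in log2(RPKM + 1) from Col-0 (vertical axis) for NRT1.5 and 6 root transcripts (horizontal axis) in the 4 mutants, 1 value per point, with dashed lines at the threshold of 1. The pifq and pifq ein3 eil1 points lie below 0 for every gene shown. The hls1 point is below 0 for NRT1.5 and TIP2;3 and above 0 for CASP1 to CASP5. Of the 10 compared root markers, PRP3, EXPA7, THAS1 and MRN1 are not drawn. PRP3 was above 0 in pifq, and PRP3, EXPA7 and MRN1 were above 0 in pifq ein3 eil1. THAS1 and MRN1 were below 0 in hls1.

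NRT1.1 (AT1G12110), a dual-affinity carrier that is also a nitrate sensor, was the most abundant of the 5 transporter transcripts, and it passed the threshold in none of the 6 comparisons made. It stood at 162 RPKM in hls1, at 88.5 RPKM in pifq, at 91.4 RPKM in ein3 eil1 and at 61.7 RPKM in pifq ein3 eil1, against 110.2 RPKM in Col-0. The highest genotype was hls1 and the lowest pifq ein3 eil1, 1.38 apart on the log2 scale. Set against Col-0, its log2 difference came to 0.56 in hls1 and -0.83 in pifq ein3 eil1, or -0.66 relative to the median of all genes there. In ein3 eil1 its difference of -0.27 was 0.02 relative to that median. NRT1.8 (AT4G21680), which takes nitrate back out of the xylem sap, stood at 0.673 RPKM in hls1, at 0.194 RPKM in pifq, at 0.401 RPKM in ein3 eil1 and at 0.794 RPKM in pifq ein3 eil1, against 0.345 RPKM in Col-0. At these levels its order of genotypes was not judged. NRT2.1 (AT1G08090), the main high-affinity uptake carrier of roots, was listed at 0 in hls1 and ein3 eil1 and at 0.0170 RPKM in pifq and 0.0302 RPKM in pifq ein3 eil1, against 0.0198 RPKM in Col-0. NRT1.8 overlaps CPL1 (AT4G21670) by 44 bases on the other strand, and CPL1 had 5.64 to 11.3 RPKM in the mutants and 7.62 RPKM in Col-0.

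The reductase genes had their highest levels in the genotypes without PIFs, but of the 6 differences from Col-0 there 1 passed the threshold, NIA1 in pifq. NIA1 (AT1G77760) stood at 77.3 RPKM in hls1, at 219 RPKM in pifq, at 93.1 RPKM in ein3 eil1 and at 189 RPKM in pifq ein3 eil1, against 108 RPKM in Col-0. NIA2 (AT1G37130), known as the source of most nitrate reductase activity in leaves, stood at 252 RPKM in hls1, at 352 RPKM in pifq, at 120 RPKM in ein3 eil1 and at 335 RPKM in pifq ein3 eil1, against 176 RPKM in Col-0. NIR1 (AT2G15620) stood at 317 RPKM in hls1, at 336 RPKM in pifq, at 184 RPKM in ein3 eil1 and at 352 RPKM in pifq ein3 eil1, against 213 RPKM in Col-0. For all 3 genes pifq and pifq ein3 eil1 were the highest genotypes, with hls1 near them for NIR1. All 3 lay below Col-0 in ein3 eil1 as deposited, though for NIA1 and NIR1 this turned with the scaling. At most 3.70% of compared genes had a higher level than NIR1 in any genotype. On TAIR10.1, NIA1 lies at chr1:29235721-29239484 on the minus strand, NIA2 at chr1:14158452-14161938 and NIR1 at chr2:6810395-6812941, both on the plus strand.

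In pifq the log2 difference from Col-0 was 1.01 for NIA1, 0.99 for NIA2 and 0.65 for NIR1, so NIA1 and NIA2 lay on either side of the threshold with nearly the same difference. NIA1 was under it after quantile normalization, at 0.98, and after scaling to nuclear genes, at 0.88. NIA2 passed it after median-of-ratios scaling, at 1.06, but was at 0.88 after quantile normalization and 0.87 after scaling to nuclear genes. In pifq ein3 eil1 the differences from Col-0 were 0.80, 0.92 and 0.72 for NIA1, NIA2 and NIR1, all under it. There NIA2 passed it after median-of-ratios scaling, at 1.11, and quantile normalization, at 1.04, but not after scaling to nuclear genes, at 0.98. Against ein3 eil1, the same genotype differed by 1.01 for NIA1, 1.48 for NIA2 and 0.93 for NIR1. The NIA1 difference was 0.87 after median-of-ratios scaling and 0.76 after scaling to nuclear genes, whereas NIA2 stayed past the threshold with every scaling tried. Between pifq ein3 eil1 and pifq the differences were small, at -0.21, -0.07 and 0.07. The interaction was 0.00 for NIA1, 0.48 for NIA2 and 0.28 for NIR1, beside a median of 0.18 over all genes.

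In ein3 eil1 the differences from Col-0 were -0.21 for NIA1, -0.55 for NIA2 and -0.22 for NIR1. Relative to the median of all genes they were 0.07, -0.27 and 0.07, so the NIA1 and NIR1 values changed sign. In hls1 the NIA genes went apart: NIA1 differed from Col-0 by -0.48 and NIA2 by 0.52, each under the threshold. NIA1 made up 23.4% of the summed NIA1 and NIA2 level in hls1, with 38.3% for pifq, 43.7% for ein3 eil1 and 36.0% for pifq ein3 eil1, against 38.0% in Col-0. The sum itself stood at 329.8 RPKM in hls1, at 571 RPKM in pifq, at 213 RPKM in ein3 eil1 and at 524 RPKM in pifq ein3 eil1, against 284 RPKM in Col-0. PORA, an enzyme of the dark-grown cotyledon, was at 44.5 RPKM in hls1 against 2089 RPKM in Col-0. It was also called lower in pifq, at 403 RPKM, and in pifq ein3 eil1, at 213 RPKM, where the NIA1 share was near that of Col-0. Its part in the NIA1 and NIA2 levels was not tested. NIA1 and NIA2 have coding sequences of equal length, 2754 bases each, and as close relatives may share some reads.

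**Figure D3:**
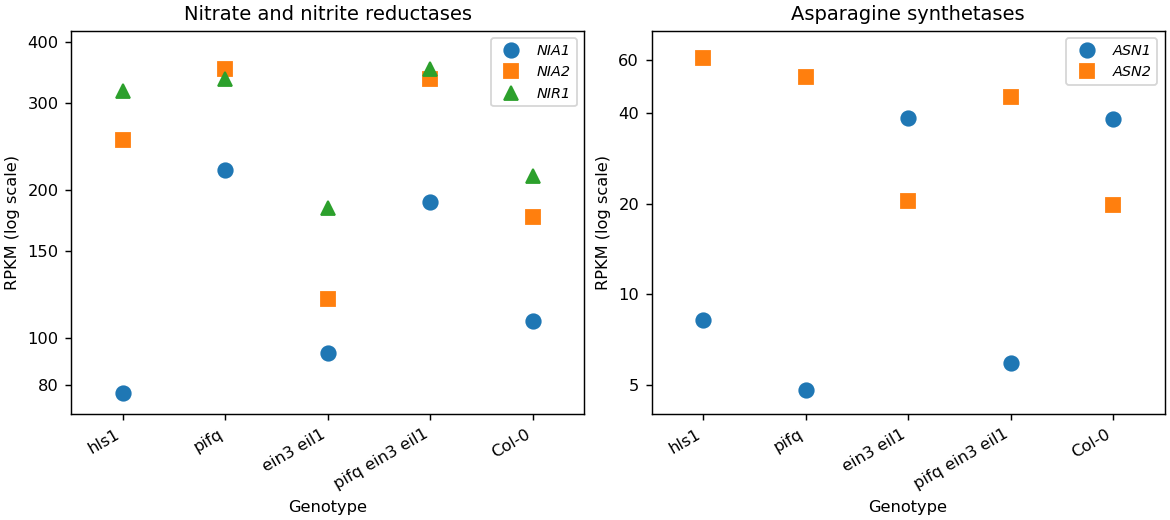
Level in RPKM (vertical axes, log scale) of NIA1, NIA2 and NIR1 (left) and of the asparagine synthetase genes ASN1 and ASN2 (right) in the 5 genotypes, 1 value per point. In hls1 the NIA1 point is lowest of the 5 while NIA2 and NIR1 lie above Col-0, and ASN2 lies above ASN1 in hls1, pifq and pifq ein3 eil1 but below it in ein3 eil1 and Col-0.

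NLP7 (AT4G24020) was the steadiest of the compared genes in the set, at 11.2 RPKM in hls1, at 11.8 RPKM in pifq, at 9.96 RPKM in ein3 eil1 and at 10.7 RPKM in pifq ein3 eil1, against 11.8 RPKM in Col-0. Against Col-0 its log2 value differed by -0.07, 0.01, -0.22 and -0.12 in these mutants, and its highest value was 1.19 times its lowest. The value in ein3 eil1 was 0.07 relative to the median of all genes.

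Of the 7 compared genes, 3 were called in at least 1 comparison with Col-0 (NRT1.7, NRT1.5 and NIA1), where 18.9% of all compared genes were. In hls1 it was NRT1.7 alone, and 7.41% of all genes were called there, 3.40% higher and 4.00% lower. In pifq the called genes were 3, NRT1.7 and NIA1 higher and NRT1.5 lower, beside 9.61% of all genes, 3.39% higher and 6.22% lower. For ein3 eil1 there was again NRT1.7 alone, beside 4.14%, 1.63% higher and 2.51% lower. The genotype pifq ein3 eil1 had 2 against Col-0, NRT1.7 higher and NRT1.5 lower, beside 9.85%, 3.81% higher and 6.04% lower. Against ein3 eil1 the same genotype had 3, NIA1 and NIA2 higher and NRT1.5 lower, beside 8.02%, 4.04% higher and 3.99% lower. Against pifq it had none, where 2.88% of all genes were called. For the interaction there was likewise none, where 4.85% were. Because the genes were chosen with such results known, nothing is read from these counts.

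**Figure D4:**
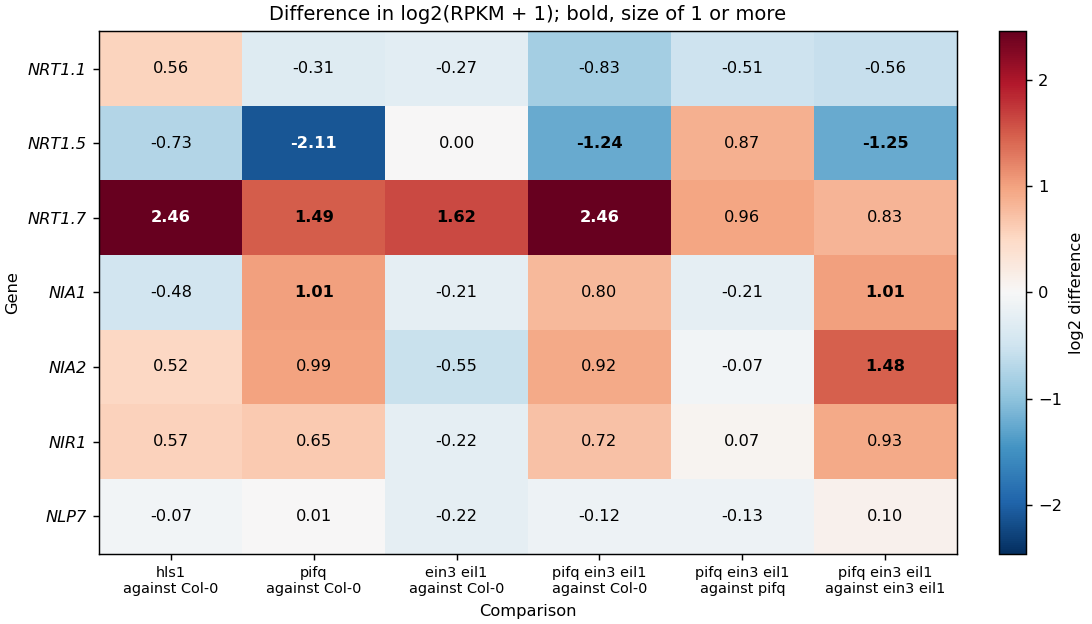
Difference in log2(RPKM + 1) of the 7 compared genes (rows) in 6 comparisons (columns), coloured from blue (lower in the first-named genotype) to red (higher), with values past the threshold of 1 in bold. The NRT1.7 row is positive throughout, from 0.83 to 2.46, and the NIA1, NIA2 and NIR1 rows are positive in pifq and pifq ein3 eil1 against Col-0 and negative in ein3 eil1, where NIA1 and NIR1 turned positive under each of the 3 other scalings.

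The rest of the pathway was described through lists of gene identifiers. Of 15 other nitrate transporter genes among the compared genes, 2 were higher and 5 lower in pifq, beside 3.39% of all compared genes higher and 6.22% lower, with a median log2 difference of -0.69 beside -0.05 for all genes. NRT3.1 (AT5G50200), the partner protein that NRT2 carriers need, was at 8.25 RPKM in pifq and 5.83 RPKM in pifq ein3 eil1, against 1.28 RPKM in Col-0, differences of 2.02 and 1.58. NPF3.1 (AT1G68570) was at 3.61 RPKM in hls1, in pifq at 2.74 RPKM and in pifq ein3 eil1 at 2.50 RPKM, against 0.749 RPKM in Col-0, and was called higher in all 3, by 1.40 in hls1. Lower in pifq were NRT1.12 (AT3G16180), a phloem carrier of leaf veins, at 14.8 RPKM against 37.6 RPKM in Col-0, the anion channel gene SLAH2 at 1.41 RPKM against 4.38 RPKM, NPF6.4 at 0.949 RPKM against 3.19 RPKM and NRT1.9 at 3.77 RPKM against 8.87 RPKM. The last of the 5, CLCa, whose product carries nitrate into the vacuole, stood at 55.4 RPKM against 114.5 RPKM and was named after its value was seen. NRT1.12 was also lower in pifq ein3 eil1, by 1.19 on the log2 scale.

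In hls1 the same list had 1 higher gene, NPF3.1, too few to set against the 7.41% of all compared genes called, 3.40% higher. NPF3.1 reached no more than 3.61 RPKM, and with a filter at an RPKM of 5 no gene of the list was called in hls1. The list had a median of 0.42 in hls1 beside 0.04 for all genes. None of its 15 genes was called in ein3 eil1, where 4.14% of all compared genes were. After median-of-ratios scaling 1 was called there, as after quantile normalization, after scaling to nuclear genes and with a pseudocount of 0.5. With a pseudocount of 0.1 there were 2. Of these transporters, 6 others were in the table and stayed under 1 RPKM, among them NRT2.2 and NRT2.4, listed at 0 in every genotype.

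Among 28 genes of nitrate signalling, 4 were higher and none lower in hls1, beside 3.40% of all compared genes higher and 4.00% lower, with a median of 0.39 beside 0.04 for all genes. They were the LOB-domain repressor genes LBD38, at 96.7 RPKM against 26.1 RPKM in Col-0, and LBD37, at 101.9 RPKM against 37.2 RPKM, BT1, a BTB-domain scaffold gene, at 9.52 RPKM against 2.44 RPKM, and CPK30, a calcium-dependent kinase gene of nitrate signalling, at 37.5 RPKM against 13.5 RPKM. LBD37 and LBD38 are known to be induced by nitrogen and to repress nitrate-responsive genes. In pifq none of the 28 was higher and 2 were lower, near the 9.61% of all genes called there, and 1 was called after median-of-ratios scaling. ANR1, a MADS-box factor of lateral root growth in nitrate, was at 0.729 RPKM in pifq, at 5.73 RPKM in ein3 eil1 and at 1.68 RPKM in pifq ein3 eil1, against 12.8 RPKM in Col-0, so ein3 eil1 differed by -1.04 and pifq ein3 eil1 by -2.37. CBL1, a calcium sensor, was at 12.2 RPKM in pifq against 25.7 RPKM, a difference of -1.01, or -0.97 relative to the median of all genes. ANR1 in ein3 eil1 was no longer called after median-of-ratios scaling, when no gene of the list was. Beside these values, CASP1 to CASP5 summed to 251 RPKM in hls1, to 57.3 RPKM in pifq, to 199.8 RPKM in ein3 eil1 and to 63.4 RPKM in pifq ein3 eil1, against 209 RPKM in Col-0, and ANR1 was at 7.98 RPKM in hls1. Other root markers went the other way where ANR1 was called lower. PRP3, THAS1 and MRN1 were called higher in ein3 eil1, and PRP3 and MRN1 in pifq ein3 eil1. The part of root transcripts in the ANR1 values was not tested.

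For the genes that serve the reductases the counts were 0 or 1 of the list in each mutant, which is too few to set against the share of all genes called. Of 8 genes for the molybdenum cofactor and siroheme, UPM1, a methyltransferase of the siroheme branch, was lower in ein3 eil1, at 182 RPKM against 392 RPKM in Col-0, a difference that no longer passed the threshold after median-of-ratios scaling, and no other was called against Col-0. In pifq UPM1 was at 577 RPKM, a difference of 0.56. Of 7 genes for reductant supply, G6PD3, a plastid glucose-6-phosphate dehydrogenase, was higher in hls1, at 35.5 RPKM against 16.4 RPKM, and none was called in the other mutants. Of 4 ammonium transporter genes, AMT2;1 was higher in pifq ein3 eil1, at 24.2 RPKM against 7.76 RPKM, and was at 14.7 RPKM in hls1, 13.2 in pifq and 6.24 in ein3 eil1.

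Downstream of nitrite reductase, the asparagine synthetase genes stood in opposite order in different genotypes. ASN1 (AT3G47340), known to be induced in darkness and repressed by light, was at 8.20 RPKM in hls1, at 4.78 RPKM in pifq, at 38.7 RPKM in ein3 eil1 and at 5.91 RPKM in pifq ein3 eil1, against 38.4 RPKM in Col-0. ASN2 (AT5G65010) was at 61.2 RPKM in hls1, at 52.9 RPKM in pifq, at 20.5 RPKM in ein3 eil1 and at 45.5 RPKM in pifq ein3 eil1, against 19.9 RPKM in Col-0. In each of hls1, pifq and pifq ein3 eil1 ASN1 was called lower and ASN2 higher, while ein3 eil1 was level with Col-0 for both. The log2 differences were -2.10, -2.77 and -2.51 for ASN1 and 1.58, 1.37 and 1.16 for ASN2. Of the other genes among the 13 of ammonium assimilation and amide synthesis, the cytosolic glutamine synthetase gene GLN1;1 was called lower without PIFs. It stood at 38.3 RPKM in pifq and 36.6 RPKM in pifq ein3 eil1, against 86.8 RPKM in Col-0. The list as a whole had 3 called genes in each genotype without PIFs. These stood beside 9.61% of all compared genes for pifq and 9.85% for pifq ein3 eil1. For hls1 the list had 2, beside 7.41%. None of the 13 was called in ein3 eil1, where 4.14% of all compared genes were. A list of 13 genes is too short to set against that share.

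The lists were also compared between genotypes with and without the PIFs where EIN3 and EIL1 were missing in both. Set against ein3 eil1, pifq ein3 eil1 had ASN2 higher, at 45.5 RPKM against 20.5 RPKM, and ASN1 lower, at 5.91 RPKM against 38.7 RPKM. AMT2;1 was higher, at 24.2 RPKM against 6.24 RPKM, and UPM1 was higher, at 373 RPKM against 182 RPKM. Of the 28 signalling genes 1 was higher and 1 lower, near the 8.02% of all compared genes called there, 4.04% higher and 3.99% lower. The lower one was ANR1, at 1.68 RPKM against 5.73 RPKM. After each of the 3 other scalings no gene of the cofactor and siroheme list was called, so UPM1 no longer passed, and 1 assimilation gene was called in place of 2; the ASN2 difference was 0.99 relative to the median of all genes. None of the 15 other nitrate transporter genes was called in that comparison, against 1 after median-of-ratios scaling or quantile normalization and 2 after scaling to nuclear genes or with a pseudocount of 0.1.

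**Figure D5:**
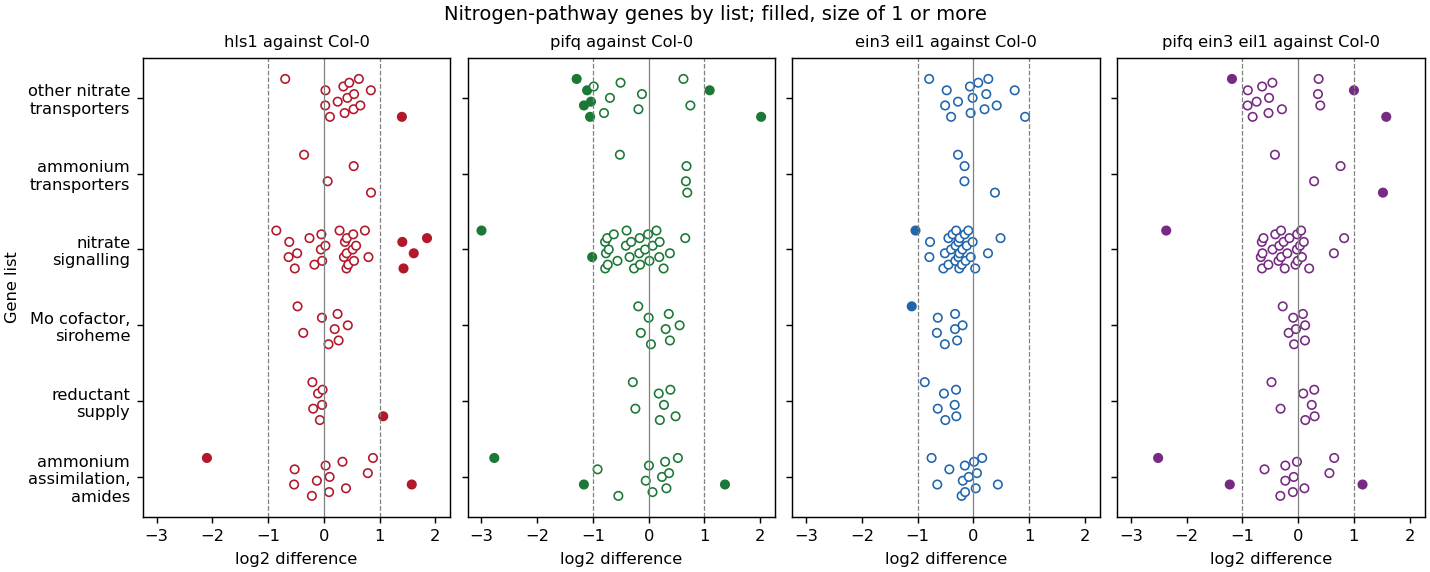
Difference in log2(RPKM + 1) from Col-0 (horizontal axes) for genes of 6 nitrogen lists (vertical axis) in the 4 mutants, 1 point per compared gene, filled where the size is 1 or more, with dashed lines at the threshold. In hls1 the filled signalling points lie above 1, the lowest assimilation point in hls1, pifq and pifq ein3 eil1 is ASN1, and ein3 eil1 has 2 filled points, ANR1 and UPM1.

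For the 3 genes with the widest range over genotypes, the genes with the most similar profile were sought among 6054 with a symbol and a mean RPKM of 5 or more, by the Euclidean distance of log2(RPKM + 1) centred over the 5 genotypes. Nearest to NRT1.7 was GASA6, a gibberellin-regulated peptide gene, at a distance of 0.22 and standing at 786 RPKM in hls1, at 409 RPKM in pifq, at 433 RPKM in ein3 eil1 and at 668 RPKM in pifq ein3 eil1, against 146 RPKM in Col-0. CYP96A12 and the expansin gene EXPA1 came next, CYP96A12 at 0.97. Among those near to NRT1.5 were the phytosulfokine precursor gene PSK4 at 0.30 and the peroxidase gene PRXCB at 0.32. Nearest to NIA2 were FAP3 at 0.38, the clock-related MYB gene RVE8 at 0.40 and the amino acid permease gene AAP6 at 0.40. With 5 values per gene, likeness of this kind is a description of these columns.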

How the data were processed

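RNA of 10 libraries was sequenced as paired 150 nt reads. Per the submitters' processing notes, BWA 0.7.7 and TAIR10 were used. How reads were counted, by strand or not, and over which gene lengths is not given in the sources used here. Values were deposited by the authors as RPKM, scaled by that unit's definition to gene length and mapped reads, in 1 column per genotype. Of the values above 0, 51.4% carry 7 or more significant digits, and 95.5% of those end in 5, as a mean of 2 rounded numbers does. The gene descriptions in the table were not used. The members and gene lists were chosen with earlier results of these data known. Differences were computed on log2(RPKM + 1) with pandas 2.3.3 over 18581 genes at an RPKM of 1 or more in at least 1 column. A check on simulated columns used planted changes past the threshold and little noise. It tests the computation and says nothing of how reliable the calls are. A pseudocount of 1 understates the differences of low genes. Named genes were the 9 members, up to 6 called genes per list with the largest difference from Col-0, the 3 nearest profiles of each of the 3 widest-ranging members (1 is not reported here), and the mutated genes. Outside that rule, CLCa, NRT2.2, NRT2.4, the root and shoot markers and the genes overlapping NRT1.5 and NRT1.8 were named with their values known. Symbols and positions came from RefSeq (TAIR10.1), which held 32817 of 33559 identifiers. Of 22 listed nitrate transporters, 21 were in the table.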

Additional observations from a re-analysis of the deposited data

How the results depend on the processing

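With 1 value per genotype, no replicate could be left out. No paired analysis was possible because the columns carry no replicate numbers. Of 392 differences of the members recomputed under 8 alternatives, none that was called changed sign, 343 kept their sign and side of the threshold, 12 fell under it, 9 passed it, and 28 that were never called changed sign. Members called between pifq ein3 eil1 and pifq numbered 2 with a pseudocount of 0.1 and 1 each after median-of-ratios scaling, quantile normalization and scaling to nuclear genes without ribosomal RNA, against 0 as reported. The interaction called 1 with a pseudocount of 0.1, against 0. At a log2 difference of 2, 1 member was called for pifq, 0 for ein3 eil1 and 1 for pifq ein3 eil1, each against Col-0, and 0 for pifq ein3 eil1 against ein3 eil1. Of the other lists, nitrate transporters called in pifq numbered 4 after quantile normalization, against 7, and signalling genes called in pifq numbered 1 after median-of-ratios scaling, against 2, and 4 with a pseudocount of 0.1. Leaving out the filter called no further member. The cause of these shifts was not tested, except that a stricter threshold calls fewer genes by construction. The unknown depth and unseen replicate spread limit every difference given.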
